A study of Homo sapiens with 12 samples.

Results

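The mRNAs of 9 proteins that hold back mTORC1, the kinase complex that drives growth when nutrients and growth factors are present, were measured in 2 human melanoma cell lines. The 9 genes were DDIT4, DDIT4L, SESN1, SESN2, SESN3, TSC1, TSC2, DEPTOR and AKT1S1. They were picked by gene symbol from a table with 58307 rows that name a gene, and each symbol had a single row, so that a rule to keep the row with the highest mean count was not needed. DDIT4 had been chosen by the study for its lower level with rapamycin in these same libraries, so its treatment differences are given as a description, with no test. The other members and the gene lists used below were chosen with earlier results of these data known. Their tests and counts may therefore not be independent of that choice.

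A375 and SK-MEL-28 are established lines from human malignant melanoma. Each line was given the topoisomerase II inhibitor etoposide, alone or with rapamycin, a macrolide that binds FKBP12 and inhibits mTORC1, and 3 libraries were made from polyA-enriched RNA for each of the 4 groups. All 12 libraries therefore came from cells under etoposide, and untreated cells and cells given rapamycin alone were not analysed here. Doses and hours of treatment for the sequenced cells are not given in the sources used here. Levels are CPM, a gene's count relative to the TMM-scaled total of its library, a log2 change is etoposide + rapamycin over etoposide, and a gene passed the test at an adjusted p under 0.05 by the quasi-likelihood test of edgeR (Benjamini-Hochberg, adjusted across every gene in the fit).

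Growth factor signals reach mTORC1 through Akt, which inactivates the TSC complex, a brake made of TSC1, TSC2 and TBC1D7 that turns off the small GTPase RHEB. DDIT4 (also called REDD1), induced by hypoxia, DNA damage and other stresses, acts upstream of the TSC complex, and DDIT4L (REDD2) is its paralog. Amino acids act through the Rag GTPases, and sestrins bind GATOR2 and so keep that branch off when leucine is scarce. DEPTOR and AKT1S1 (PRAS40) bind the mTOR complexes themselves. mTORC1 is the direct target of rapamycin, so these transcripts code for proteins that act upstream of, or on, the drug's own target.

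Total counts lay between 28189501 and 32499337 per library, and the biological coefficient of variation was 0.0957 in each line. Of 10 markers of the melanocyte lineage, SOX10 (166 to 579 CPM), S100A1 (77.9 to 240.1 CPM), S100B (56.8 to 106 CPM), MITF (12.1 to 29.7 CPM) and PAX3 (9.97 to 15.6 CPM) were present in the 12 libraries. The pigment cell genes PMEL, MLANA, DCT and TYRP1 lay between 0.202 and 2.99 CPM, and TYR, the enzyme of pigment synthesis, had 0 to 6 counts. Of the 9 lineage markers tested, 4 fell with rapamycin in A375 (MITF, DCT, S100B and S100A1, median log2 change over the 9 of -0.35) and 1 in SK-MEL-28 (MITF, median -0.16, adjusted p under 0.05 by edgeR). Of all genes tested, 13.8% fell in A375 and 10.1% in SK-MEL-28 at the same threshold. The summed level of all 10 was 727 to 852 CPM with etoposide and 602 to 869 CPM with both drugs in A375, and 524 to 649 CPM against 393 to 617 CPM in SK-MEL-28. SOX10, the largest part of these sums, varied between replicates, from 325 to 579 CPM in A375 with both drugs. Of the 7 markers of other cell types, PTPRC, EPCAM, KRT5 and COL1A2 had at most 18 counts in any library. The summed level of those 7 markers, most of it KRT14, PECAM1 and DCN, was 19.0 to 22.9 CPM with etoposide and 15.5 to 18.6 CPM with etoposide + rapamycin in A375, and 11.1 to 12.4 CPM against 7.33 to 9.13 CPM in SK-MEL-28. The part of either marker list in the results was not tested. A lower number of RNA molecules per cell and a loss of cells with a high level cannot be told apart in such bulk libraries.

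Per kilobase of transcript, AKT1S1 had the highest level of the 9 genes, with mean levels over the 6 libraries of a line of 135 CPM per kilobase in A375 and 139.8 in SK-MEL-28 (percentiles 97.6 and 97.7 of the genes with a count and a known length). TSC2 followed in A375, at 31.2 CPM per kilobase against 22.9 for DDIT4, and DDIT4 was above TSC2 in SK-MEL-28, at 37.4 against 31.3. The size of the lead of AKT1S1 and the place of TSC2 depend on the length used, here that of the MANE transcript. By the length of all annotated exons, AKT1S1 had 41.0 CPM per kilobase in A375 with etoposide. In SK-MEL-28 with etoposide it then had 44.1 CPM per kilobase, against 43.1 for DDIT4. Per kilobase of all annotated exons, TSC2 had 8.75 CPM in A375 with etoposide and 10.8 with both drugs. By that length it lay below DDIT4 (23.3 and 14.4) and SESN2 (15.5 and 16.8) in A375. SESN2 was the most abundant sestrin, at 16.1 CPM per kilobase in A375 and 18.2 in SK-MEL-28. SESN1 and TSC1 lay between 4.71 and 7.32 CPM per kilobase, and DEPTOR and SESN3 between 1.38 and 2.36. DDIT4L was almost absent. It had 2, 0 and 0 counts in the A375 libraries with rapamycin, 0, 2 and 3 counts in those with etoposide alone, and 0 counts in all 6 SK-MEL-28 libraries, where 3 counts, the limit that a count of 0 allows, equal 0.0923 to 0.106 CPM. DDIT4L did not pass the filter on low counts, and the other 8 members were tested in each line.

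**Figure D1:**
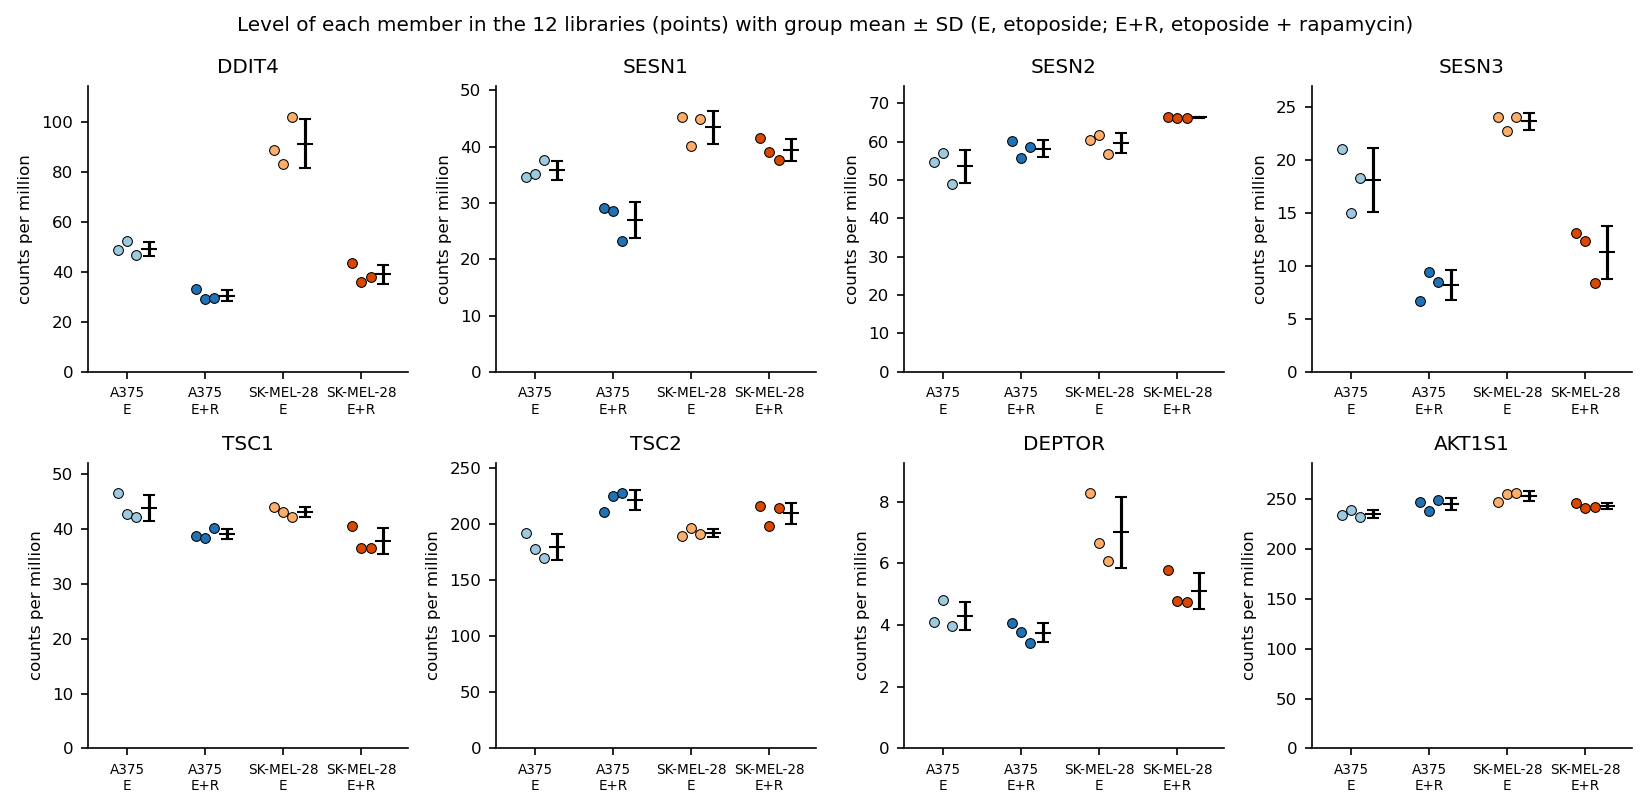
Level of the 8 tested members in CPM (vertical axis, from 0) in each of the 12 libraries (points), by cell line and treatment, with the mean and SD of each group of 3 beside the points. DDIT4 and SESN3 show the 2 lowest groups of libraries under etoposide + rapamycin in both lines, and AKT1S1 lies between 232 and 256 CPM throughout.

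The promoters of 3 members are shown because DDIT4 and SESN3 were the members with the largest treatment differences and TSC2 was the member that rose in A375. Each is the 250 bases before the transcription start in RefSeq (GRCh38.p14), 5′ to 3′ on the gene's own strand, DDIT4 at chr10:72273674-72273923 (forward), SESN3 at chr11:95232476-95232725 (reverse) and TSC2 at chr16:2047735-2047984 (forward). Capitals mark matches to 3 motifs searched on both strands, the hypoxia-response core bound by HIF (ACGTG or GCGTG), the CARE element bound by ATF4 (TGATGNAA) and the FOXO element (GTAAACA).
DDIT4: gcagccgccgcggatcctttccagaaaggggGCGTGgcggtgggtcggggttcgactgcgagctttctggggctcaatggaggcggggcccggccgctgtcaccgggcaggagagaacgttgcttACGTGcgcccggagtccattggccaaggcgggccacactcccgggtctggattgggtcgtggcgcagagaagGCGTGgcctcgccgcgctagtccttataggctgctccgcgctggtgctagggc
SESN3: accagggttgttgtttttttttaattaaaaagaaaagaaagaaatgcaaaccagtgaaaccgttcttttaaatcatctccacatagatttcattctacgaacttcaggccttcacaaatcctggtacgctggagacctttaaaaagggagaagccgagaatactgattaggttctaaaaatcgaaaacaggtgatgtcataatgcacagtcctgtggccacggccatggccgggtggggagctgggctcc
TSC2: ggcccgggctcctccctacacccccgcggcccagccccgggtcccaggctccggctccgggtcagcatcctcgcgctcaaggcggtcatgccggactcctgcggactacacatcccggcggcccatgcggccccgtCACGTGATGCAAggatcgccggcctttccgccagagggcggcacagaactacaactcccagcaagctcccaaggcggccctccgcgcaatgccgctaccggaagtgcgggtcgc

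The DDIT4 window held 1 ACGTG, 125 bases before the start, and 2 GCGTG, 219 and 53 bases before it. Its GC content was 68.8%, and no CARE or FOXO match was found. ACGTG occurred in 18.5% and GCGTG in 32.2% of the 35116 promoter windows of this length, so that such matches are common. The SESN3 window, with a GC content of 42.8%, held none of the 3 motifs, which says only that these letters are not in this window. The printed TSC2 window held an E-box (CACGTG), found in 6.35% of windows, whose letters contain an ACGTG on each strand. A CARE match, a motif found in 3.14% of windows, overlapped the E-box 110 bases before the start. TSC2 had another RefSeq window, chr16:2047952-2048201 (forward), not printed here, which held none of these motifs. FOXO matches occurred in 2.98% of windows and in none of the 10 windows examined for 7 of the members. A match is a description of the sequence and not evidence of binding.

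DDIT4 (ENSG00000168209.6, GRCh38 chr10:72273919-72276036, forward strand) had levels of 48.7, 52.2 and 46.8 CPM in the A375 libraries with etoposide and of 33.2, 29.1 and 29.4 CPM with etoposide + rapamycin. In SK-MEL-28 its levels were 88.7, 83.2 and 102 CPM with etoposide and 43.4, 36.1 and 37.9 CPM with both drugs. The 3 libraries with rapamycin lay below the 3 without it in each line, and the 4 groups did not overlap at all, in the order A375 with both drugs, SK-MEL-28 with both drugs, A375 with etoposide and SK-MEL-28 with etoposide. The treatment difference in level was -37.8% in A375, a log2 change of -0.68 (SE 0.071), and -57.2% in SK-MEL-28, a log2 change of -1.22 (SE 0.083).

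The level of DDIT4 also differed between the lines, a contrast that its choice did not use. Under etoposide SK-MEL-28 had 91.3 ± 9.80 CPM (SD, n = 3) and A375 49.3 ± 2.75 CPM (SD, n = 3), a log2 difference of 0.89 (SE 0.082, adjusted p = 2.49e-07 in the edgeR fit of the 12 libraries). With both drugs the levels were 39.1 ± 3.83 CPM in SK-MEL-28 and 30.5 ± 2.27 CPM in A375 (SD, n = 3 each), a log2 difference of 0.36 (SE 0.086, adjusted p = 0.00316 by the same fit). The distance between the lines was thus smaller with rapamycin, by 0.53 (SE 0.12) on the log2 scale, a value built from the treatment differences that chose the gene and given without a test.

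SESN3 fell with rapamycin in both lines, and of the other 7 tested members it alone passed the test in both in the fits within each line. It codes for a stress-inducible sestrin and is a known target of FOXO factors (ENSG00000149212.12, chr11:95165513-95232541, reverse strand). Its levels in A375 were 21.1, 15.0 and 18.3 CPM with etoposide and 6.65, 9.46 and 8.49 CPM with etoposide + rapamycin. In SK-MEL-28 they were 24.1, 22.8 and 24.1 CPM with etoposide and 13.1, 12.3 and 8.42 CPM with both drugs. The groups did not overlap in either line. SESN3 fell by 1.14 on the log2 scale in A375 (SE 0.15, edgeR adjusted p = 0.000145, -54.6%) and by 1.07 in SK-MEL-28 (SE 0.14, edgeR adjusted p = 0.00013, -52.4%). The responses of the lines differed by 0.077, with a 95% interval of -0.39 to 0.55 that still allows a sizeable difference either way (adjusted p = 0.895 in the 12-library edgeR fit). When any 1 library was left out, the log2 change remained within -1.26 to -1.01 (A375) and -1.19 to -0.89 (SK-MEL-28). Its annotated exons share 98 bases with an antisense lncRNA that did not pass the filter.

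SESN1, a sestrin that acts on GATOR2, fell in A375. Its levels there were 34.6, 35.1 and 37.7 CPM with etoposide and 29.1, 28.5 and 23.3 CPM with etoposide + rapamycin, groups that did not overlap (log2 change -0.40, SE 0.089, adjusted p = 0.0049 by edgeR). In SK-MEL-28 its levels of 45.4, 40.1 and 44.9 CPM with etoposide overlapped the 41.6, 39.1 and 37.7 CPM with both drugs, with a log2 change of -0.14 and a 95% interval of -0.29 to 0.0062 (adjusted p = 0.177 by edgeR). The difference between these responses, 0.27, did not pass the test either (adjusted p = 0.189 by edgeR), so the fall was not shown to differ between the lines. SESN1 lies on the reverse strand at chr6:108984309-109094846, and 363 bases of its exons overlap an antisense lncRNA.

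SESN2, known as a target of ATF4 and as a leucine sensor, had small differences in the other direction. In A375 its levels were 54.7, 57.1 and 48.9 CPM with etoposide and 60.1, 55.7 and 58.5 CPM with both drugs, and the groups overlapped (log2 change 0.12, 95% interval -0.018 to 0.26, adjusted p = 0.184 by edgeR). In SK-MEL-28 the 3 libraries with both drugs, at 66.5, 66.3 and 66.3 CPM, lay above the 60.4, 61.8 and 56.8 CPM with etoposide, although the log2 change of 0.15 missed the threshold (95% interval 0.039 to 0.26, adjusted p = 0.0593 by edgeR). SESN2 lies at chr1:28259518-28282491 on the forward strand.

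The sestrins together kept a nearly constant level while their make-up shifted. Summed per kilobase, they gave 23.7 ± 0.872 CPM per kilobase with etoposide and 22.4 ± 0.698 with both drugs in A375, and 27.4 ± 0.560 against 27.3 ± 0.623 in SK-MEL-28 (SD, n = 3 each). SESN3 made up 6.47% to 9.13% of that sum in the A375 libraries with etoposide and 3.00% to 4.47% in those with both drugs, and 8.71% to 9.38% against 3.30% to 4.91% in SK-MEL-28. The share of SESN2 was 65.2% ± 2.91 with etoposide and 74.9% ± 2.22 with both drugs in A375, and 62.9% ± 2.18 against 70.2% ± 1.48 in SK-MEL-28 (SD, n = 3 each). SESN2 has the shortest and SESN3 the longest of the 3 transcripts, so shares of raw counts would differ from these. These sums and shares are descriptions with no test.

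**Figure D2:**
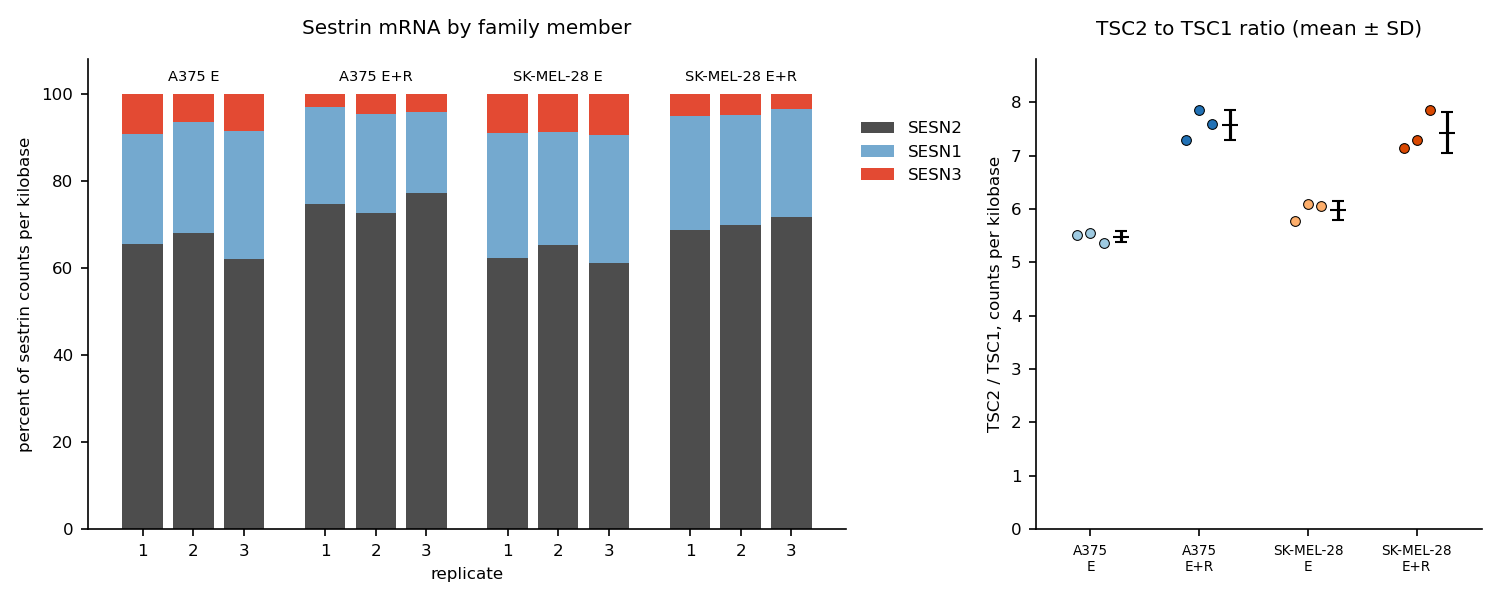
Left, percent of the summed sestrin counts per kilobase that each sestrin held in the 12 libraries (stacked bars, 1 per replicate), with SESN3 on top. Right, ratio of TSC2 to TSC1 counts per kilobase in each library (points) with mean and SD by group, between 5.37 and 6.10 with etoposide and between 7.14 and 7.86 with both drugs.

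TSC2, the GTPase-activating subunit of the TSC complex, rose in A375. Its levels were 192, 177 and 169 CPM with etoposide and 211, 225 and 228 CPM with etoposide + rapamycin, without overlap (log2 change 0.31, SE 0.055, adjusted p = 0.00129 by edgeR, or 23.6%). In SK-MEL-28 the levels were 190, 196 and 191 CPM with etoposide and 216, 199 and 214 CPM with both drugs, again without overlap, but the log2 change of 0.12 did not pass (95% interval 0.0094 to 0.23, adjusted p = 0.126 by edgeR). The responses differed by -0.18 (adjusted p = 0.181 by edgeR), which did not pass the test. TSC2 (chr16:2047967-2089491, forward strand) shares 784 bases of exon with PKD1 on the opposite strand. Whether the counting used strand is not stated, and PKD1 itself had a log2 change of 0.34 in A375 (adjusted p = 0.0219) and -0.084 in SK-MEL-28 (adjusted p = 0.481, both by edgeR), so the part of PKD1 reads in the TSC2 count was not tested.

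TSC1, the subunit that stabilises TSC2, had levels of 46.6, 42.8 and 42.3 CPM with etoposide and 38.8, 38.4 and 40.2 CPM with both drugs in A375. In SK-MEL-28 they were 44.01, 43.1 and 42.2 CPM with etoposide and 40.5, 36.5 and 36.5 CPM with both drugs. The groups did not overlap in either line, yet the log2 changes of -0.16 (95% interval -0.29 to -0.028, adjusted p = 0.0694 by edgeR) and -0.19 (95% interval -0.33 to -0.052, adjusted p = 0.0552 by edgeR) missed the threshold. Both passed when library totals replaced TMM (adjusted p = 0.0247 and 0.0257 by edgeR) and in a fit of all 12 libraries (0.0488 and 0.0356). TSC1 in SK-MEL-28 passed in 4 of 14 alternative settings, among them also that without etoposide + rapamycin replicate 1 (adjusted p = 0.0327 by edgeR). The ratio of TSC2 to TSC1 per kilobase was 5.48 ± 0.0980 with etoposide and 7.58 ± 0.280 with both drugs in A375, and 5.98 ± 0.178 against 7.43 ± 0.380 in SK-MEL-28 (SD, n = 3 each), given as a description. The size of this ratio depends on the transcript lengths used for both genes, while its relative difference between treatments does not. TSC1 lies on the reverse strand at chr9:132891348-132946874.

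DEPTOR, which binds mTOR in both of its complexes, had low levels in all libraries. In A375 they were 4.10, 4.81 and 3.97 CPM with etoposide and 4.06, 3.77 and 3.42 CPM with both drugs, with overlapping groups (log2 change -0.19, 95% interval -0.55 to 0.17, adjusted p = 0.439 by edgeR). In SK-MEL-28 they were 8.27, 6.65 and 6.08 CPM with etoposide and 5.78, 4.79 and 4.75 CPM with both drugs, without overlap, and the log2 change of -0.46 missed the threshold (95% interval -0.79 to -0.12, adjusted p = 0.055 by edgeR). It passed in 5 of 14 alternative settings. Among these were library totals and the fits without etoposide + rapamycin replicate 1 or etoposide replicate 3 (adjusted p = 0.0397, 0.0461 and 0.0486 by edgeR). The fit of all 12 libraries was also among them. With 102 to 253 counts per library, DEPTOR was the tested member with the fewest reads, and within each line its intervals were the widest of the members tested.

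AKT1S1, the Akt substrate PRAS40 that binds mTORC1, had the narrowest intervals. Its levels in A375 were 234, 239 and 232 CPM with etoposide and 247, 238 and 249 CPM with both drugs, with overlap (log2 change 0.064, 95% interval -0.029 to 0.16, adjusted p = 0.300 by edgeR). In SK-MEL-28 they were 247.0, 255 and 256 CPM with etoposide and 246.5, 241 and 242 CPM with both drugs, which lay just below without overlap (log2 change -0.058, 95% interval -0.16 to 0.042, adjusted p = 0.435 by edgeR). The intervals leave room for a change of at most 0.16 on the log2 scale in either direction. Its exons (chr19:49869033-49878459, reverse strand) are in part shared with another annotated gene, so its count is uncertain by the reads of that stretch.

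**Figure D3:**
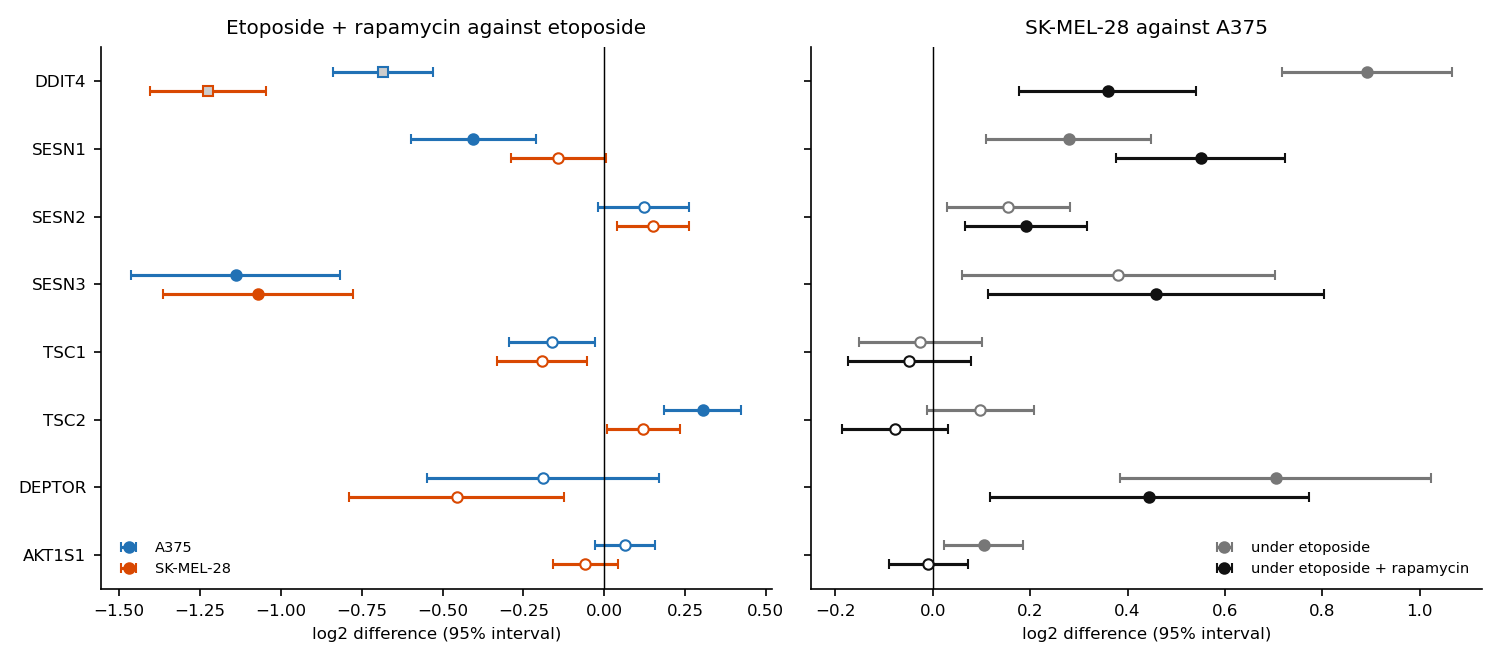
Left, log2 change of each tested member with rapamycin in A375 and SK-MEL-28; right, log2 difference of SK-MEL-28 from A375 under each treatment. Bars are 95% intervals, filled circles passed an adjusted p of 0.05, open circles did not, and the grey squares of DDIT4 (left) are a description with no test. SESN3 lies at -1.14 and -1.07, while AKT1S1 lies within 0.064 of 0 in the left panel.

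Of the 7 tested members other than DDIT4, 1 rose (TSC2) and 2 fell (SESN1 and SESN3) in A375, where 14.3% of the 18844 genes tested rose and 13.8% fell. In SK-MEL-28, 1 fell (SESN3) and 0 rose by edgeR, against 8.83% of 18897 genes that rose and 10.1% that fell. DESeq2 also called 0 of them higher in SK-MEL-28. At an unadjusted p under 0.05 by edgeR, 1 of the 7 was higher and 3 were lower in A375 (19.2% and 19.6% of all genes), and 2 were higher and 3 lower in SK-MEL-28 (15.4% and 16.3% of all genes). Only SESN3 also passed a fold change of 1.5, in both lines, as did 5.89% of genes (A375) and 4.99% (SK-MEL-28). The groups did not overlap for 4 of the 7 in A375 and for 6 of the 7 in SK-MEL-28, where 42.6% and 35.9% of all genes showed no overlap. The 7 had a median log2 change of -0.16 (A375) and -0.14 (SK-MEL-28), beside -0.0051 and 0.0053 over all genes tested. The response differed between the lines for 0 of the 7 by edgeR and by DESeq2, beside 5.62% of 20101 genes by edgeR. At an unadjusted p under 0.05 by edgeR it differed for 2 of the 7, beside 20.4% of all genes.

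Between the lines, every member that passed was higher in SK-MEL-28. Under etoposide, 15.1% of all genes were higher and 16.7% lower in SK-MEL-28, and of the 7 members other than DDIT4, 3 were higher. These were DEPTOR, with 6.999 ± 1.14 CPM against 4.29 ± 0.454 (SD, n = 3 each, log2 difference 0.70, SE 0.15, adjusted p = 0.00159 by edgeR), SESN1 (log2 difference 0.28, adjusted p = 0.0129) and AKT1S1 (0.10, adjusted p = 0.0485). The AKT1S1 call sat at the threshold and was lost in 14 of 20 alternative settings, among them those without any 1 of the A375 libraries. That of SESN1 was lost without SK-MEL-28 etoposide replicate 1 or 3 (adjusted p = 0.0538 and 0.0532 by edgeR). SESN2 (0.16, adjusted p = 0.0576) and SESN3 (0.38, adjusted p = 0.0664) missed the threshold by edgeR and passed by DESeq2, which called 5 of the 7. By edgeR they also passed without A375 etoposide replicate 2 (SESN2, adjusted p = 0.0238), SK-MEL-28 etoposide replicate 3 (SESN2, 0.0435), A375 etoposide replicate 1 (SESN3, 0.0287) or SK-MEL-28 etoposide + rapamycin replicate 3 (SESN3, 0.0299). TSC1 (-0.025, adjusted p = 0.794) and TSC2 (0.098, adjusted p = 0.172) did not pass by edgeR, although TSC2 did without A375 etoposide replicate 1 (adjusted p = 0.0373).

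With both drugs, 18.9% of genes were higher and 18.9% lower in SK-MEL-28, and 4 of the 7 members were higher. SESN1 had the largest and firmest difference, with 39.5 ± 1.96 CPM against 27.0 ± 3.22 (SD, n = 3 each, log2 difference 0.55, SE 0.082, adjusted p = 4.68e-05 by edgeR). SESN3 (0.46, adjusted p = 0.0349), DEPTOR (0.44, adjusted p = 0.0313) and SESN2 (0.19, adjusted p = 0.0174) were the other 3 by edgeR. The call of SESN3 was lost in 6 of 20 alternatives, 4 of them without A375 replicate 1 or 3 or SK-MEL-28 replicate 1 or 2 of this treatment (adjusted p = 0.159, 0.0658, 0.16 and 0.117 by edgeR). The call of DEPTOR was lost in 5, 3 of them without A375 replicate 2 or 3 or SK-MEL-28 replicate 1 of this treatment (0.0682, 0.111 and 0.136), and that of SESN2 without A375 replicate 2 (0.0747). TSC1, TSC2 and AKT1S1 had log2 differences of -0.048, -0.078 and -0.0093, none of which passed (adjusted p = 0.571, 0.256 and 0.879 by edgeR). With both drugs, all 3 sestrins were thus higher in SK-MEL-28 than in the other line, while neither TSC gene passed the test between the lines under either treatment in the fit of all 12 libraries.

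Of 70 tested genes in the lists of regulators, core subunits and transcription factors, 9 rose (12.9%) and 14 fell (20%) in A375, beside 14.3% and 13.8% of all genes. In SK-MEL-28, 5 rose (7.14%) and 8 fell (11.4%), beside 8.83% and 10.1% of all genes. The 70 genes had a median log2 change of -0.067 (A375) and -0.029 (SK-MEL-28). Among brakes, TBC1D7, the third subunit of the TSC complex, fell in A375 (log2 change -0.46, adjusted p = 0.00587) and had -0.25 in SK-MEL-28 (adjusted p = 0.138, both by edgeR). BMT2, the S-adenosylmethionine sensor also called SAMTOR, fell in both lines, by 0.47 in A375 (adjusted p = 0.00323) and 0.39 in SK-MEL-28 (adjusted p = 0.0176, both on the log2 scale by edgeR). CASTOR1, an arginine sensor, fell by 1.13 in SK-MEL-28 (adjusted p = 0.00729) and had -0.11 in A375 (adjusted p = 0.728, both by edgeR), and the difference between the lines did not pass (adjusted p = 0.0818 by edgeR). Its reads were few, with a mean of 112 counts in SK-MEL-28 with etoposide (3.55 to 3.66 CPM) and 49.3 with both drugs (1.01 to 2.23 CPM).

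Of the 6 GATOR1 and KICSTOR genes, C12orf66 and DEPDC5 came nearest to the threshold, and neither passed. C12orf66 had -0.32 in A375 and -0.066 in SK-MEL-28 (adjusted p = 0.0632 and 0.777), and DEPDC5 had 0.0076 and -0.32 (adjusted p = 0.976 and 0.0691, all log2 changes by edgeR). Of the 6 phosphatases and other brakes on PI3K and Akt, INPP4B fell in A375 (-0.29, adjusted p = 0.00206 by edgeR) and had -0.013 in SK-MEL-28 (adjusted p = 0.907). INPP5D fell in SK-MEL-28 (-0.65, adjusted p = 0.00552 by edgeR) and had -0.32 in A375 (adjusted p = 0.326). Of the 5 genes around DDIT4 protein, TXNIP rose (0.48, adjusted p = 0.00411) and GSK3B fell (-0.16, adjusted p = 0.0144) in A375 by edgeR, and DDB1, named after its value was seen, fell in SK-MEL-28 (-0.15, adjusted p = 0.0468).

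Among activators, 5 of 9 Rag GTPase and Ragulator genes fell in A375, where 13.8% of all genes tested fell. They were led by LAMTOR3 (-0.61, adjusted p = 0.000126) and RRAGC (-0.49, adjusted p = 0.000219), which had -0.19 and -0.022 in SK-MEL-28 (adjusted p = 0.101 and 0.872, all by edgeR). The other 3 were RRAGA, RRAGD and LAMTOR5, which were named after their values were seen. RRAGA (-0.26, adjusted p = 0.00305 by edgeR) was the 1 of the 9 that fell in SK-MEL-28, where 10.1% of all genes tested fell. WDR24 of GATOR2 rose in both lines (0.24 and 0.47, adjusted p = 0.04 and 0.00215 by edgeR), and MIOS of the same complex had -0.26 and 0.0066 (adjusted p = 0.117 and 0.972). AKT1 rose in both (0.34 and 0.20, adjusted p = 0.000291 and 0.0168 by edgeR), and AKT2 in A375 (0.27, adjusted p = 0.00188), with 0.041 in SK-MEL-28 (adjusted p = 0.665). RHEB and RHEBL1 did not pass in either line, with RHEB at -0.084 and -0.022 (adjusted p = 0.2 and 0.805 by edgeR). TELO2, a chaperone subunit needed to assemble mTOR kinases, rose by 0.71 in A375 (adjusted p = 3.3e-06) and 0.37 in SK-MEL-28 (adjusted p = 0.00238, both by edgeR), and RPTOR (0.23) and TTI1 (0.20), named after their values were seen, rose with it in A375 (adjusted p = 0.0127 and 0.0149). Of the 10 tested AMPK genes, STK11 rose (0.36, adjusted p = 0.000268) and PRKAG1, named after its value was seen, fell (-0.13, adjusted p = 0.0479) in A375, and PRKAB1 rose in SK-MEL-28 (0.36, adjusted p = 0.000324, all by edgeR).

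**Figure D4:**
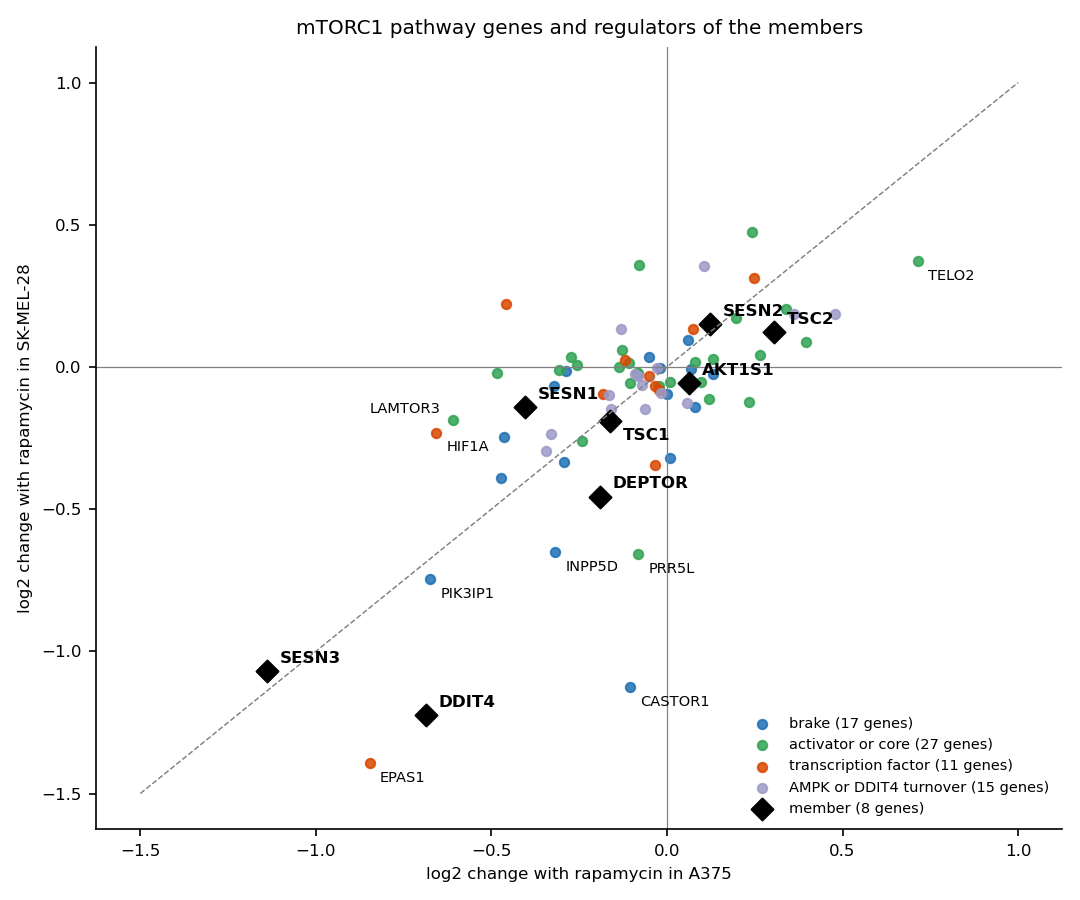
Log2 change with rapamycin in A375 (horizontal) against SK-MEL-28 (vertical) for the 8 tested members (diamonds) and the 70 other genes of the pathway lists (circles, by role); names are given where either change exceeds a fold of 1.5, and the dashed line marks equal changes. SESN3, DDIT4, EPAS1 and CASTOR1 lie lowest, and most genes lie near 0 in both lines.

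A list of 11 transcription factors known to act on these genes was examined because DDIT4 is a known target of HIF1 and ATF4. EPAS1, which codes for HIF2-alpha, fell in both lines. Its levels in A375 were 12.2, 11.7 and 13.9 CPM with etoposide and 7.21, 6.13 and 7.55 CPM with both drugs (log2 change -0.85, SE 0.12, adjusted p = 0.000281 by edgeR), and in SK-MEL-28 they were 14.9, 16.7 and 12.7 CPM against 5.78, 5.32 and 5.82 CPM (log2 change -1.39, SE 0.12, adjusted p = 8.2e-06 by edgeR). HIF1A fell as well, from 500.3, 479 and 503 CPM to 312, 314 and 309 CPM in A375 (-0.66, adjusted p = 5.55e-07) and from 365, 335 and 352 CPM to 314, 293 and 291 CPM in SK-MEL-28 (-0.23, adjusted p = 0.00778, both log2 changes by edgeR). The groups of both genes did not overlap in either line. HIF1A fell further in A375 than in SK-MEL-28 (adjusted p = 0.000666 for the difference by edgeR).

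ATF4 rose by 0.25 in A375 (adjusted p = 0.0014) and 0.31 in SK-MEL-28 (adjusted p = 0.00257, both log2 changes by edgeR). DDIT3, the stress factor CHOP, fell in A375 (-0.46, adjusted p = 0.00165) and had 0.22 in SK-MEL-28 (adjusted p = 0.224 by edgeR). ARNT, the partner of both HIF subunits, fell by 0.18 in A375 (adjusted p = 0.0212) and had -0.095 in SK-MEL-28 (adjusted p = 0.287 by edgeR). FOXO1 fell in SK-MEL-28 (-0.34, adjusted p = 0.0234) and had -0.034 in A375 (adjusted p = 0.813 by edgeR). FOXO3, FOXO4, NFE2L2, NR3C1 and CEBPB did not pass in either line, with log2 changes from -0.12 to 0.13 (adjusted p from 0.139 to 0.856 by edgeR). mRNA levels of these factors do not measure their protein or activity.

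The genes whose profiles over the 12 libraries lay nearest to that of DDIT4 were NRN1, LOXL2, FAM162A, AK4 and HK2. Nearness is the root mean square difference in log2 CPM after each gene was centred on its own mean, among 12318 genes that averaged 100 counts or more in each line. It was 0.15 for NRN1 and 0.18 for HK2, compared with 0.59 for the spread of DDIT4 about its own mean. Their log2 changes with rapamycin ran from -0.82 for AK4 to -0.56 for LOXL2 in A375 and from -1.22 for NRN1 to -0.94 for FAM162A in SK-MEL-28. For SESN3 the nearest were NIM1K (0.20), MEGF10 (0.22) and FGF1 (0.23), against a spread of 0.63 for SESN3 itself. These profiles were ranked on the same 12 libraries and describe likeness only.

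**Figure D5:**
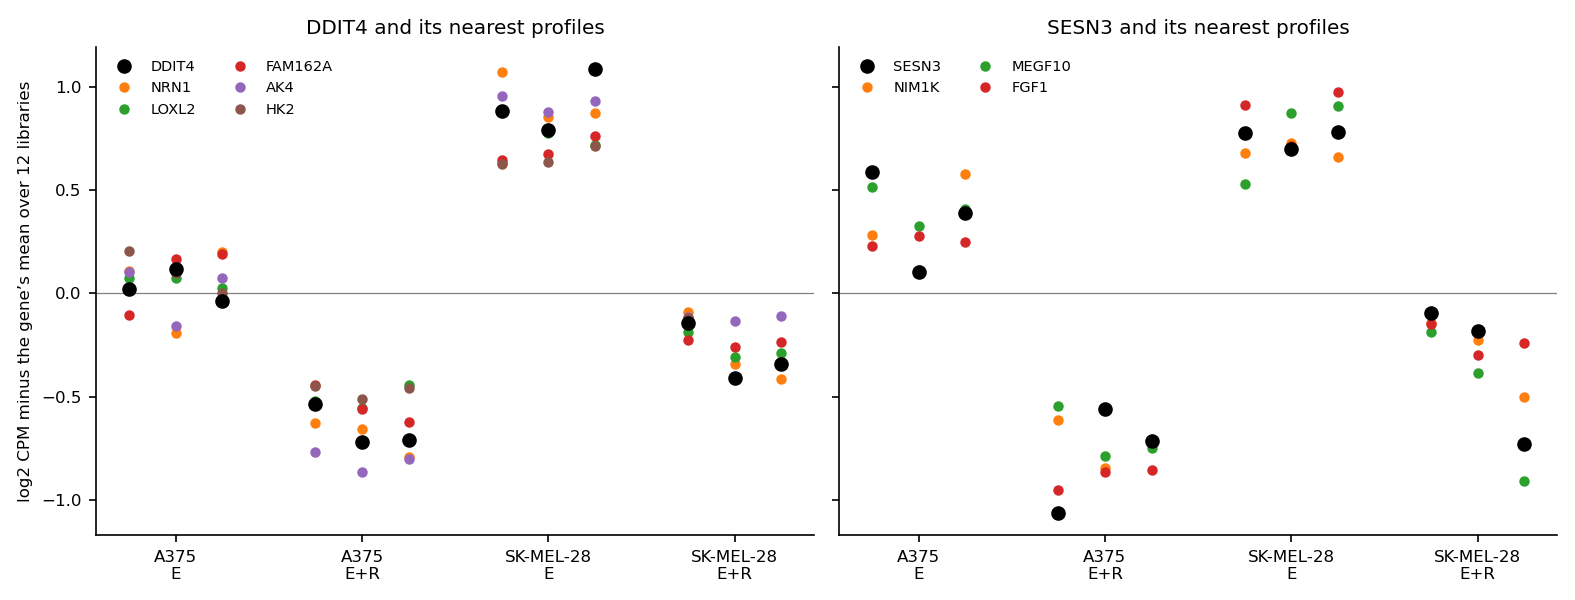
Log2 CPM minus each gene's mean over the 12 libraries (vertical axis), by group and replicate, for DDIT4 and its 5 nearest genes (left) and for SESN3 and its 3 nearest genes (right), with the named member in black. By group mean, DDIT4 and SESN3 are highest in SK-MEL-28 with etoposide and lowest in A375 with etoposide + rapamycin.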

How the data were processed

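RNA in 12 libraries from A375 and SK-MEL-28 cells was profiled. By the study's methods, the authors mapped clean reads of polyA-enriched libraries to GRCh38 with HISAT2 and estimated expression with StringTie and an Ensembl annotation. The authors deposited raw counts per gene and library, unnormalized and not pooled. How coverage became counts, and whether strand was used, is not given in the sources used here. Of 58312 rows, 5 named no gene (0.00099% to 0.0053% of counts) and were left out. The members and gene lists were chosen with earlier results of these data known.

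Counts were fitted with edgeR 4.0.16 in R 4.3.3 (filterByExpr with a minimum count of 10, TMM, glmQLFit and glmQLFTest, Benjamini-Hochberg adjustment). The treatments were compared within each line (6 libraries), and the lines and their responses in a fit of 12 libraries. Genes passed when the adjusted p was under 0.05, with a fold threshold of 1.5 where stated. The SE is the log2 change over the square root of F. The fits were tested on simulated data. Alternatives were DESeq2 1.42.0, other scalings and filters, the replicate number as a block, summed rows and leaving out each library. Lengths came from the MANE transcripts of GENCODE. Promoters came from RefSeq, and windows of 7 of the 9 members were examined. The study's methods call the replicates biological, and the labels do not say whether they were separate cultures, so p-values measure the spread between these libraries. Precision rests on 28189501 to 32499337 counts per library and 3 libraries per group.

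Named were the 9 members, all 11 transcription factors, the list genes that passed with 1 sign in both lines and a fold over 1.5 in at least 1, otherwise the 2 genes of a list with the smallest adjusted p, the genes nearest in profile and genes with overlapping exons. Some genes that these rules cover are not reported here and were left out of the lists.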

Additional observations from a re-analysis of the deposited data

Results flagged for a closer look

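By the interaction test of edgeR in the fit of all 12 libraries, the rapamycin response differed between lines for 8 of 70 pathway-list genes. It differed for none of the 7 tested members other than DDIT4, whose difference is a description with no test. Values are the log2 change in SK-MEL-28 minus that in A375. Genes with a positive difference made up 8.57% of the 70 and those with a negative one 2.86%. For HIF1A, the oxygen-regulated subunit of HIF1, the difference was 0.44 (SE 0.062, adjusted p = 0.000666), and for the stress factor DDIT3 it was 0.69 (SE 0.15, adjusted p = 0.0118). In the Rag and Ragulator group it was 0.47 for RRAGC (adjusted p = 0.00975) and 0.43 for LAMTOR3 (adjusted p = 0.016). It was 0.28 for INPP4B, a phosphatase that limits PI3K signalling (adjusted p = 0.0388), and 0.27 for the AMPK subunit PRKAG1 (adjusted p = 0.0142). TELO2 and RPTOR had differences of the opposite sign, -0.33 (adjusted p = 0.0294) and -0.35 (adjusted p = 0.027). Of all genes tested, 5.62% differed at this threshold, and groups of 3 libraries were too small for a test of single outlying samples.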

How the results depend on the processing

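Of 649 values of single members under an alternative, leaving out the treatment values of DDIT4, 589 kept their direction and side of the threshold, 28 lost and 24 gained the threshold, and 8 changed sign. SESN1, SESN3 and TSC2 in A375 and SESN3 in SK-MEL-28 kept their calls under every alternative run. The changes of sign were all of values near 0 and all came from leaving out 1 library. They were the response differences of SESN3 (-0.051, -0.060 and -0.045, over a range of -0.060 to 0.25), SESN2 (-0.018, over -0.018 to 0.093) and TSC1 (0.0033 and 0.0039, over -0.082 to 0.0039), the line difference of TSC1 under etoposide (0.026, over -0.048 to 0.026) and that of AKT1S1 with both drugs (0.0049, over -0.029 to 0.0049).

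Of the 7 members other than DDIT4, 3 passed in SK-MEL-28 with library totals and with 1 fit of all 12 libraries, and 2 with a filter of 10 counts in every library, against 1 in the report (1 to 3 leaving out each library). Between the lines under etoposide, 5 passed by DESeq2 and 5 with that filter, against 3. With both drugs, 2 passed once genes with any count were kept, against 4 (2 to 4 leaving out each library). With no fold change threshold, the genes called rose from 1109 to 5295 in A375, from 943 to 3582 in SK-MEL-28, from 2522 to 6392 between the lines under etoposide and from 2894 to 7595 with both drugs. The genes whose response differed numbered 1130, and 1738 by DESeq2, 658 with all genes that had a count kept and 594 to 1315 leaving out each library. The causes were not tested.

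Same-numbered libraries of the 2 treatments did not deviate together (correlations of -0.11 to -0.0047 over 12713 genes). As each group held only 3 libraries, these correlations cannot settle whether same-numbered libraries were prepared together. With the replicate number as a block, 620 genes had a differing response and 2 of the 7 members passed in SK-MEL-28, DEPTOR being added (adjusted p = 0.042 by edgeR). With 3 libraries per group, the depth limits DEPTOR most, at 102 to 253 counts, and DDIT4L could not be tested.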
